A study of Homo sapiens with 6 samples.

Results

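Partial silencing of RBM10 by a single short hairpin RNA (shRNA), shRBM10#1, was compared with a scrambled control hairpin, shScr, in PC-9 cells. PC-9 cells are an established human line of lung adenocarcinoma that carries an EGFR mutation. The comparison used the 4 libraries labelled shRBM10#1 or shScr, 2 of each, of 6 in all; the other 2 carry a second hairpin against the same gene, shRBM10#2. All cells were untreated, grown in RPMI with 10% FBS and profiled by RNA-Seq of total RNA, in a study that asked how loss of RBM10 alters the response of EGFR-mutant lung cancer to EGFR inhibitors. The control is called parental PC-9 in the methods but shScr in the sample labels, and the labels were followed here. The sources used here do not say whether libraries of a condition came from separate cultures, so p-values measure the spread between libraries alone. That spread was estimated from all 6 libraries, those of shRBM10#2 included. Each hairpin condition is 1 hairpin in 1 cell line, and an effect of RBM10 loss cannot be told apart from any other effect of that hairpin.

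RBM10 is a nuclear RNA-binding protein that acts on the choice of splice sites, often favoring the skipping of an exon, and it is recurrently inactivated in lung adenocarcinoma. Its best known targets include NUMB, a regulator of Notch signaling, and the apoptosis gene BCL2L1, whose isoforms Bcl-xL and Bcl-xS act in opposite directions on cell survival. A change in splicing need not change the total RNA of a gene. Gene totals are described here, that is, the sum over all transcripts of a gene symbol of the expected count, the estimated number of reads that the authors' software assigned to each transcript. Levels are given as CPM, expected counts scaled to a library size of 1000000 with TMM factors. They compare one gene between libraries and are not corrected for gene length. Fold changes (FC) are shRBM10#1 relative to shScr on the log2 scale, each with its standard error (SE) from edgeR's quasi-likelihood fit, and the false discovery rate (FDR) is the Benjamini-Hochberg adjusted p of that test over all genes tested. Genes are said to have risen or fallen at an FDR below 0.05.

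RBM10 itself was measured at 83.2 and 86.2 CPM in the shScr libraries and at 59.8 and 56.4 CPM in the shRBM10#1 libraries. The groups did not overlap, and RBM10 fell by 0.54 on the log2 scale (SE 0.067, FDR 0.000228), to 68.6% of its control level. With shRBM10#2 it was at 27.2 and 26.9 CPM, so the first hairpin left more RBM10 RNA than the second (log2 difference 1.11, FDR 3.65e-06). The direction and the call held under each of the 14 other settings run, with a log2 FC between -0.59 and -0.50. Its close relative RBM5, a tumor suppressor that regulates overlapping splicing events, was at 24.2 and 23.6 CPM in shScr and 26.9 and 31.8 CPM with shRBM10#1 (log2 FC 0.30, FDR 0.041). That call was lost without shRBM10#1 replicate 2 (log2 FC 0.17), shScr replicate 1 (0.32) or shScr replicate 2 (0.28), by DESeq2, in a fit of the 4 libraries alone, with the replicate number as a block, and with a length offset with or without that block (each 0.29). RBM6, the third member of the family, did not pass the test (log2 FC -0.12, FDR 0.367).

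**Figure D1:**
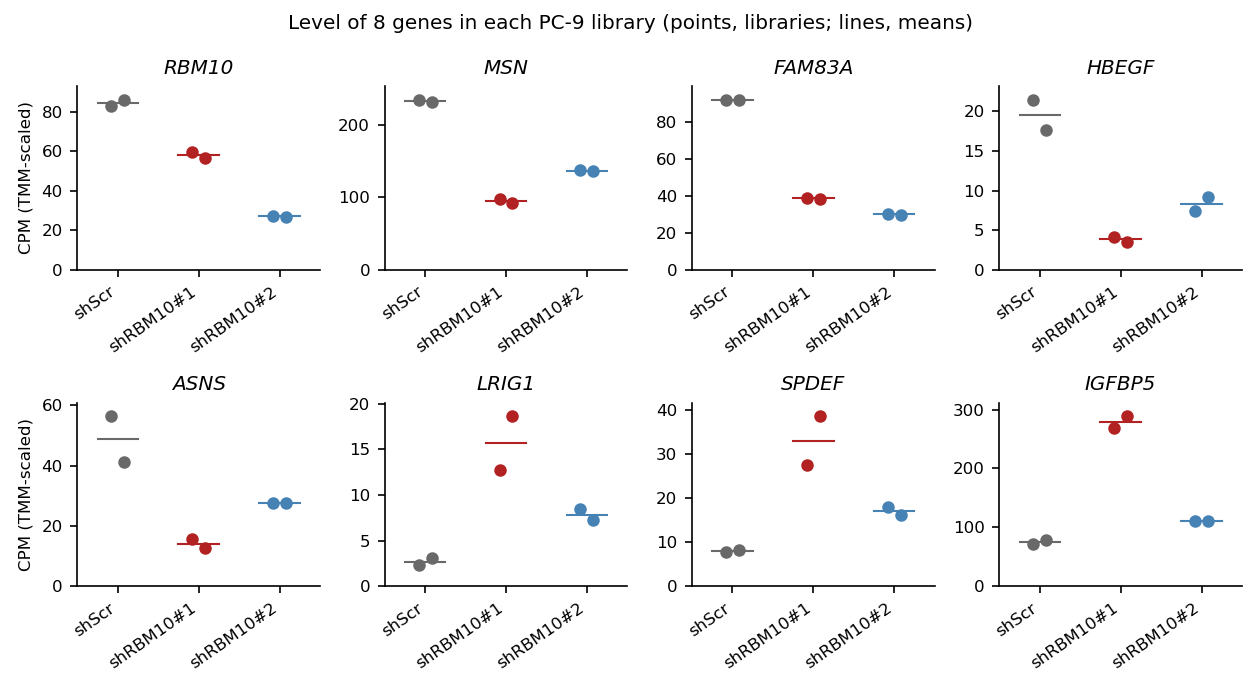
Level of 8 genes in each of the 6 libraries, in TMM-scaled CPM on linear axes that start at 0. Points are libraries and horizontal lines are the means of the 2 libraries of a condition; RBM10 in the shRBM10#1 libraries (59.8 and 56.4 CPM) lies between shScr and shRBM10#2, MSN, FAM83A, HBEGF and ASNS are lower with shRBM10#1 than with shScr, and LRIG1, SPDEF and IGFBP5 are higher.

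Library totals ranged from 31953729 to 37401982 expected counts over the 4 libraries, and 16632 to 16942 genes had a value above 0. Of 26334 gene symbols, 14217 passed the filter on low counts. The mean fragment length implied by the files was 231.2 nt in shScr replicate 2 and 264.8 to 281.2 nt in the other 5 libraries. Counts of the libraries within a condition differed beyond counting error (chi-square per degree of freedom 9.62 for shScr and 12.2 for shRBM10#1). The shRBM10#2 libraries, which add to the estimate of the spread, differed less (3.22). No pair of libraries was therefore taken for a single library deposited again. This does not show that they came from separate cultures. The cells carried the RNA of epithelial cells: all 8 epithelial markers examined were expressed, summing to 24190 to 27500 CPM. All 8 lung lineage markers were under 1 CPM in each of the 4 libraries, with SFTPA1 at 0, so the lung origin of the label was not visible in these markers. Of 6 endothelial markers, CDH5, PECAM1 and VWF were above 1 CPM and EMCN was at 0, and the sum was 17.2 and 19.1 CPM in shScr against 27.7 and 35.4 CPM with shRBM10#1. Of 8 immune markers, CD68 alone exceeded 1 CPM, MS4A1 was at 0, and the sum was 110 and 115 CPM in shScr against 87.3 and 89.1 CPM with shRBM10#1. The part of these markers in the changes below was not tested.

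With shRBM10#1, 1996 of 14217 genes changed, which is 14% of the genes tested. Of these, 1014 were higher (7.13% of genes tested) and 982 were lower (6.91%). Most changes were small: the median absolute log2 FC of the changed genes was 0.4245, and 60.0% of them changed by less than 0.5. An absolute log2 FC above 1 was reached by 267 of the changed genes (1.88%), 115 higher (0.809%) and 152 lower (1.07%). The median log2 FC of all genes tested was 0.0079. The number of changed genes depended on single libraries, and was 985 without shScr replicate 2, 1323 without shScr replicate 1, 1167 without shRBM10#1 replicate 2 and 2626 without shRBM10#1 replicate 1. By DESeq2, 1727 genes changed, and 1377 did in a fit of the 4 libraries alone. Counts of list members below are to be read beside the 14% of all genes changed, 7.13% higher and 6.91% lower. The gene lists were chosen with earlier results of these data known. Lost calls are given below mainly for libraries left out. Losses under the other fits are not listed for every gene, for example not for KRT19, HSPA1B, EDEM1 and TRA2A.

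**Figure D2:**
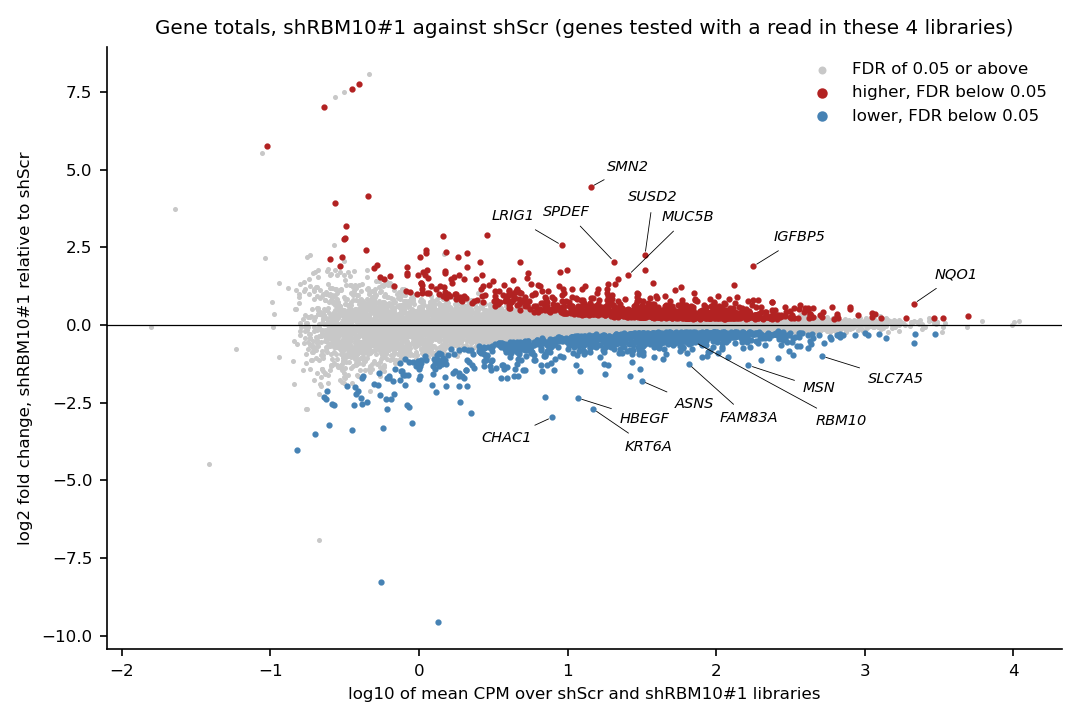
Log2 fold change of each gene with shRBM10#1 relative to shScr (vertical axis) against the log10 of its mean CPM over the 4 libraries (horizontal axis). Grey points did not pass an FDR of 0.05, red points were higher and blue points lower with shRBM10#1; the 1014 higher and 982 lower genes lie at all levels of expression, and the fold changes of genes under 1 CPM scatter most.

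The 2 libraries of shRBM10#1 did not overlap with those of shScr in 53.6% of all genes tested (27.9% with shRBM10#1 higher and 25.7% with it lower), so the absence of overlap is common in these data. The 12 largest falls among genes with a mean of at least 5 CPM and no overlap between the groups included genes of amino acid stress, of stratified epithelium and of growth factor signaling. CHAC1, which degrades glutathione and is induced by amino acid stress, had the largest, from 17.9 and 10.1 CPM in shScr to 2.30 and 1.33 CPM with shRBM10#1 (log2 FC -2.96, SE 0.28, FDR 4.26e-05), 7.80-fold lower. ASNS, asparagine synthetase, was at 56.5 and 41.2 CPM in shScr and at 15.6 and 12.6 CPM with shRBM10#1 (log2 FC -1.80, SE 0.14, FDR 8.83e-06). For both genes the shScr libraries differed from one another as well, with replicate 1 the higher. HBEGF, a ligand of EGFR, was at 21.5 and 17.7 CPM in shScr and 4.16 and 3.56 CPM with shRBM10#1 (log2 FC -2.35, SE 0.15, FDR 2.07e-06), 5.09-fold lower. IL11, a cytokine of the IL-6 family, was at 11.4 and 11.8 CPM against 2.69 and 2.04 CPM (log2 FC -2.31, FDR 2.96e-06). Both of these genes were tightly grouped within each condition and far apart between conditions.

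KRT6A and KRT6B, keratins of stressed and stratified epithelium, had log2 FCs of -2.70 (FDR 0.000185) and -1.56 (FDR 0.000477). Their sequences are so alike that reads could be split between them, so each value is uncertain. KRT6A stood at 24.4 and 26.8 CPM in shScr, and at 6.39 and 1.71 CPM in the shRBM10#1 libraries, which differ from each other but are both below shScr. KRT13, a keratin of non-keratinizing epithelium, was at 43.4 and 35.9 CPM in shScr and 12.8 and 12.7 CPM with shRBM10#1 (log2 FC -1.64, FDR 2.07e-06). CEACAM5, the carcinoembryonic antigen, was at 17.7 and 18.2 CPM against 6.11 and 6.65 CPM (log2 FC -1.49, FDR 8.83e-06). The remaining large falls were those of the stress transcription factor ATF3 (log2 FC -1.47), the myosin MYH15 (-1.45), MICB, a ligand of the NKG2D receptor of natural killer cells (-1.44), and the annexin ANXA3 (-1.41), each with an FDR of 0.00101 or less.

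The smallest p-values among genes that fell belonged to MSN, FAM83A and HBEGF. MSN, moesin, which links actin to the plasma membrane, was at 236 and 232 CPM in shScr and 98.3 and 92.6 CPM with shRBM10#1 (log2 FC -1.29, SE 0.063, FDR 2.75e-07). FAM83A, which acts in signaling downstream of EGFR, was at 91.8 and 91.5 CPM in shScr and 38.7 and 38.4 CPM with shRBM10#1 (log2 FC -1.25, SE 0.066, FDR 4.92e-07). In both genes the libraries of a condition were close to one another, and shRBM10#1 cells kept 40.8% of MSN and 42.1% of FAM83A.

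The 12 largest rises were led by LRIG1, a membrane protein that promotes the degradation of ERBB receptors. LRIG1 was at 2.28 and 3.04 CPM in shScr and 12.8 and 18.6 CPM with shRBM10#1 (log2 FC 2.56, SE 0.20, FDR 1e-05), 5.91-fold higher. SUSD2, a sushi domain membrane protein, rose from 11.3 and 11.8 CPM to 46.1 and 63.2 CPM (log2 FC 2.24, SE 0.14, FDR 2.01e-06). SPDEF, an ETS transcription factor of secretory and goblet cells, rose from 7.85 and 8.26 CPM to 27.5 and 38.7 CPM (log2 FC 2.04, SE 0.14, FDR 6.12e-06). In these genes shRBM10#1 replicate 2 was above replicate 1, and both lay well above shScr.

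IGFBP5, a secreted binding protein of insulin-like growth factors, had the smallest p of all genes. It was at 72.3 and 78.3 CPM in shScr and 270 and 289 CPM with shRBM10#1 (log2 FC 1.89, SE 0.069, FDR 1.47e-08), 3.71-fold higher. OLFML3, a secreted olfactomedin-like protein, was at 72.1 and 79.4 CPM against 183 and 191 CPM (log2 FC 1.30, SE 0.075, FDR 1.12e-06). MUC5B, a gel-forming mucin of airway secretory cells, was at 11.98 and 13.4 CPM in shScr and 28.5 and 48.6 CPM with shRBM10#1 (log2 FC 1.61, FDR 0.000456). The 2 knockdown libraries of MUC5B differ by more than those of IGFBP5, and neither overlaps with shScr. KRT23 (log2 FC 1.76), the follistatin-like gene FSTL4 (1.76), the scaffold gene IQGAP2 (1.69), the transcriptional repressor ZBTB7C (1.66), WNT11, a ligand of non-canonical Wnt signaling (1.52), and the adenylate cyclase ADCY5 (1.36) each rose with an FDR of 0.000418 or less. CP, ceruloplasmin, was at 10.5 and 12.5 CPM in shScr and 19.2 and 44.7 CPM with shRBM10#1 (log2 FC 1.49, FDR 0.0051). Its call was lost without shScr replicate 1 (log2 FC 1.37) or shScr replicate 2 (log2 FC 1.62), whereas the other 23 of the 24 largest changes were called under every alternative setting that was run.

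Set beside the second hairpin, the same genes had smaller log2 FCs relative to the same shScr libraries in many cases. HBEGF was at 7.46 and 9.16 CPM with shRBM10#2, log2 FC -1.23, and the difference between the hairpins was -1.11 (FDR 0.000518). CEACAM5 was at 17.0 and 14.6 CPM with shRBM10#2, and the difference was -1.31 (FDR 4.4e-05). IGFBP5 was at 110 CPM in both shRBM10#2 libraries, and the difference was 1.34 (FDR 7.77e-07). FAM83A went further with the second hairpin, at 30.3 and 29.7 CPM (difference 0.36, FDR 0.00269). For KRT6A the difference was -0.16, KRT6B -0.11, MYH15 0.08 and CP -0.045, and none of these passed the test (FDR 0.771 to 0.923). The 24 genes were chosen for their size with shRBM10#1, so smaller values with another hairpin are in part fixed by the choice. Over all genes, 25.5% differed between the hairpins.

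**Figure D3:**
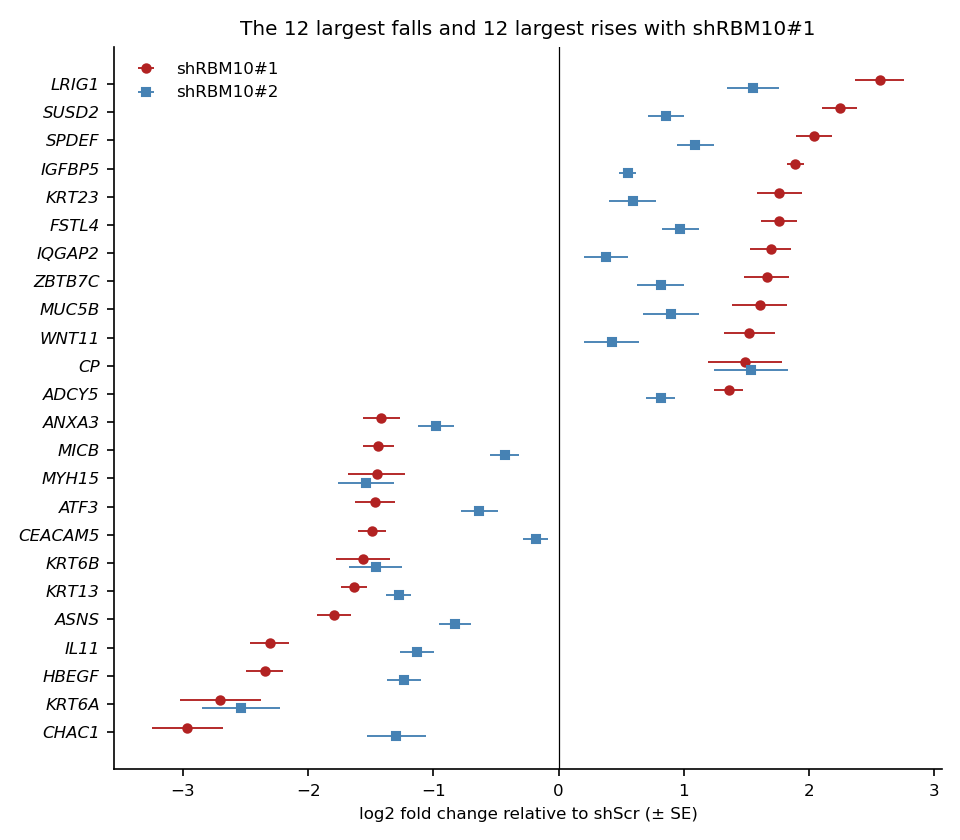
Log2 fold change relative to shScr (horizontal axis, with standard errors as bars) of the 12 largest falls and 12 largest rises with shRBM10#1 (red circles), with the values of shRBM10#2 (blue squares). LRIG1 has the largest rise with shRBM10#1 (2.56) and CHAC1 the largest fall (-2.96); both comparisons share the shScr libraries.

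When amino acids run short or the endoplasmic reticulum is stressed, translation of the transcription factor ATF4 increases, and ATF4 then activates genes that import amino acids, make serine and asparagine and charge tRNAs. Of 26 genes on a list of ATF4 and its known targets, 17 fell, 1 rose and 8 did not pass the test, with a median log2 FC of -0.51 beside 0.0079 for all genes. Of the 17, 15 were lower under every alternative run. With shRBM10#2, relative to the same shScr libraries, 16 of the 26 were lower and 0 higher, with a median of -0.39. That hairpin had more calls in general, with 25.9% of all genes changed in either direction. By the direct test 14 of the 26 differed between the hairpins, beside 25.5% of all genes. Among them were 10 of the 18 called with shRBM10#1, each with the larger change under shRBM10#1. Choosing genes by their call with shRBM10#1 in part fixes that direction. ATF4 itself was at 550 and 473 CPM in shScr and 398 and 371 CPM with shRBM10#1 (log2 FC -0.41, FDR 0.00353).

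PSAT1, an enzyme of serine synthesis, was at 305 and 243 CPM in shScr and 140 and 112 CPM with shRBM10#1 (log2 FC -1.12, FDR 5.2e-05). SLC7A5 and SLC3A2 encode the partners of a large neutral amino acid transporter. SLC7A5 was at 728 and 643 CPM in shScr against 392 and 294 CPM (log2 FC -0.998, FDR 0.000101), and SLC3A2 at 504 and 397 CPM against 303 and 261 CPM (log2 FC -0.68, FDR 0.000787). SLC7A11, the cystine transporter, was at 409 and 457 CPM against 296 and 242 CPM (log2 FC -0.69, FDR 0.000332). No shRBM10#1 library reached the lower shScr library in any of these genes.

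DDIT4, an inhibitor of mTORC1, was at 467 and 396 CPM in shScr and 229 and 218 CPM with shRBM10#1 (log2 FC -0.95, FDR 1.64e-05). SESN2, a leucine sensor that also restrains mTORC1 and is a target of p53 too, was at 29.2 and 23.9 CPM against 12.5 and 9.61 CPM (log2 FC -1.27, FDR 6.74e-05). STC2, a secreted glycoprotein induced by stress, was at 380 and 326 CPM against 185 and 156 CPM (log2 FC -1.05, FDR 2.29e-05). In each gene shScr replicate 1 was the highest library, and the groups were apart. CEBPB, a transcription factor of the same response, was the 1 member that rose (log2 FC 0.25, FDR 0.0491), and it lost its call without shScr replicate 2 (0.13), shRBM10#1 replicate 1 (0.27) or shRBM10#1 replicate 2 (0.24), and under 8 of the 10 other fits (0.17 to 0.26). VLDLR had a log2 FC of 0.00 (FDR 0.998).

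Cytosolic aminoacyl-tRNA synthetases are the enzymes that load amino acids onto tRNAs. Of 20 genes, 10 fell and none rose in the fit of all 6 libraries, with a median log2 FC of -0.20. QARS had the highest log2 FC, 0.19 (FDR 0.069). GARS, for glycine, was at 127 and 105 CPM in shScr and 64.2 and 52.3 CPM with shRBM10#1 (log2 FC -0.998, FDR 6.74e-05). CARS, for cysteine, was at 58.4 and 53.5 CPM against 34.4 and 31.3 CPM (log2 FC -0.77, FDR 5.38e-05). AARS, for alanine, had a log2 FC of -0.64 (FDR 0.000849) and MARS, for methionine, one of -0.54 (FDR 0.000835). These 4 and TARS were lower under every alternative, while the count of genes that fell was 5 without shScr replicate 1, 6 without shScr replicate 2 and 6 without shRBM10#1 replicate 2.

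**Figure D4:**
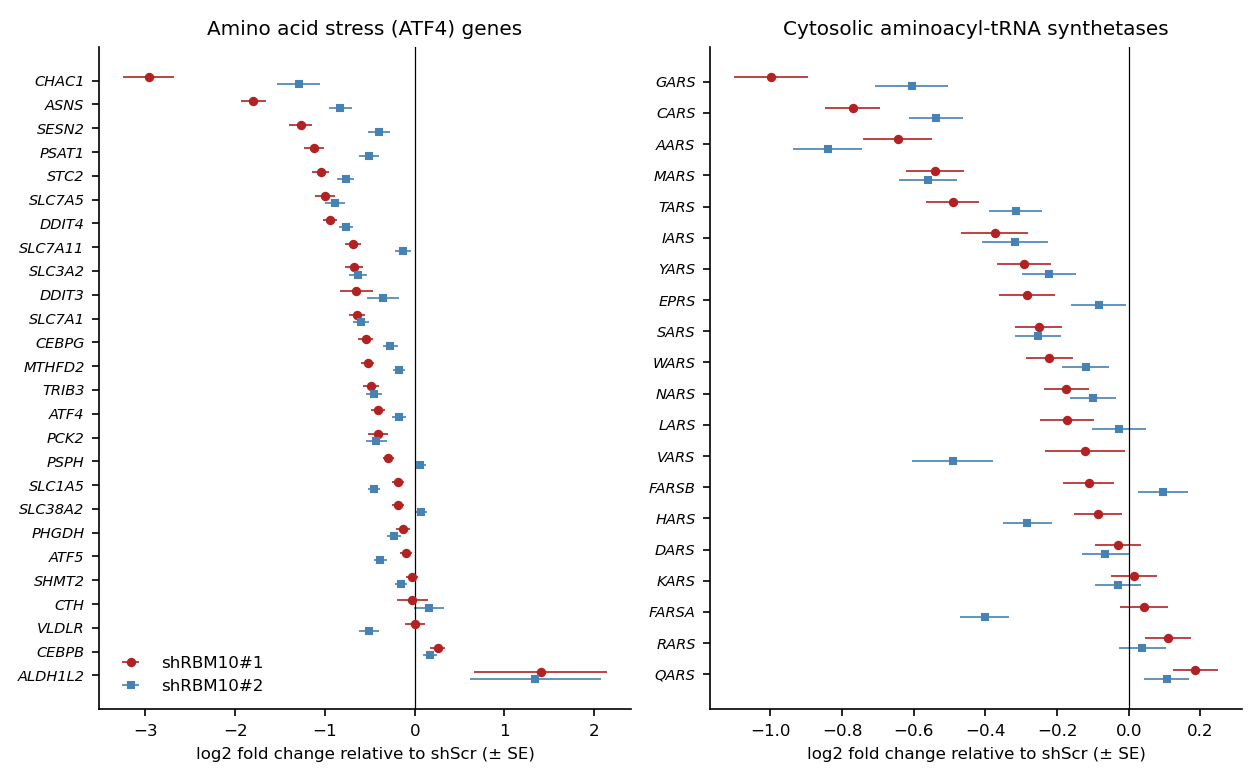
Log2 fold change relative to shScr (horizontal axes, with standard errors as bars) of all tested members of the amino acid stress list (left) and of the cytosolic aminoacyl-tRNA synthetases (right), for shRBM10#1 (red circles) and shRBM10#2 (blue squares). With shRBM10#1, 17 of 26 genes on the left and 10 of 20 on the right were lower at an FDR below 0.05.

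ATF4 binds DNA together with C/EBP proteins at a composite element with the core TGATGNAA. This motif was searched for on both strands of the RefSeq promoter sequences (GRCh38.p14) that run from 250 bases before to 50 bases after each gene's start. It was chosen after the values of the genes were seen, and no other motif was searched. It was found in 3.67% of 27303 promoters. Of the amino acid stress genes, 22 had a promoter in the table and 4 held the motif, all among the 15 of them that fell: ASNS, CHAC1, SLC3A2 and SLC7A1. Of the synthetases, 16 had a promoter and 6 held the motif, 5 of them among the 9 that fell (AARS, CARS, IARS, MARS and TARS) and 1, NARS, that did not pass the test. A match is a description of the letters, not a bound site. Known ATF4 targets can hold the motif whatever the hairpin does, so its presence was no test of these data. The windows below are shown because they belong to the gene with the largest fall, to ASNS and to synthetases that fell; capitals mark the motif, and each is read 5′ to 3′ on the strand named.
ASNS, chr7:97872461-97872484, minus strand: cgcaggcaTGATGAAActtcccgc
CHAC1, chr15:40953254-40953277, minus strand: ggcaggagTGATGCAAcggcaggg
AARS, chr16:70289678-70289701, plus strand: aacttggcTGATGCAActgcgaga
CARS, chr11:3057410-3057433, plus strand: ctagaatcTGATGCAAccgccgcc
IARS, chr9:92293695-92293718, plus strand: cacggaggTGATGCAAcgcgctga
MARS, chr12:57488056-57488079, minus strand: tccctcgcTGATGCAAccggaacc

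Other stress responses had shares of changed genes near the 14% of all genes. Of 23 genes for chaperones of the endoplasmic reticulum and the unfolded protein response, 2 rose (PDIA4, log2 FC 0.36, FDR 0.00177, and CREB3L2, 0.36, FDR 0.00563), EDEM1 fell (-0.23, FDR 0.0351), and the median was 0.03. CREB3L2 lost its call without shScr replicate 1 (log2 FC 0.30). EDEM1 lost its own without shScr replicate 1 (-0.22), shScr replicate 2 (-0.24) or shRBM10#1 replicate 2 (-0.16). Among 19 cytosolic heat shock genes tested, HSPA1A (928 and 1022 CPM in shScr, 1256 and 1280 CPM with shRBM10#1, log2 FC 0.38, FDR 0.00508) and HSPA1B (log2 FC 0.29, FDR 0.0192) rose. They are near-identical copies whose reads cannot be told apart with certainty, and HSPA1B lost its call without shScr replicate 1 (0.20). HSPH1 fell (log2 FC -0.30, FDR 0.0289), except without shScr replicate 2 (-0.22) or shRBM10#1 replicate 2 (-0.21).

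ERBB signaling is the pathway that EGFR-mutant cells depend on. EGFR was at 255 and 280 CPM in shScr and 241 and 197 CPM with shRBM10#1 (log2 FC -0.29, SE 0.087, FDR 0.0441). The groups did not overlap, but the call was lost without shScr replicate 1 (log2 FC -0.35), shScr replicate 2 (-0.22) or shRBM10#1 replicate 2 (-0.15), in a fit of the 4 libraries alone (-0.29), and with an offset for transcript length (-0.30) or GC content (-0.27). Of 16 genes tested among ERBB receptors, ligands and regulators, 5 fell and 3 rose, with a median of -0.16. Of 7 ligands tested, 3 fell and BTC, EGF, EPGN and NRG1 did not pass the test. HBEGF is given above. TGFA fell from 39.1 and 40.6 CPM to 29.1 and 31.3 CPM (log2 FC -0.40, FDR 0.00376), and AREG, at 4.47 and 3.16 CPM in shScr and 1.47 and 1.90 CPM with shRBM10#1 (-1.17, FDR 0.0079). AREG lost its call without shScr replicate 1 (-0.90). CBL, a ubiquitin ligase for EGFR, fell as well (-0.34, FDR 0.0189), except without shScr replicate 2 (-0.30) or shRBM10#1 replicate 2 (-0.23).

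LRIG1, ERBB2 and ERBB3 were the members that rose. LRIG1 is described above. ERBB2 was at 150 and 143 CPM in shScr and 179 and 197 CPM with shRBM10#1 (log2 FC 0.36, FDR 0.00395). ERBB3 had a log2 FC of 0.22 (FDR 0.0409), lost without shScr replicate 1 (0.19), shScr replicate 2 (0.25) or shRBM10#1 replicate 2 (0.16), and under 5 of the other fits (0.21 to 0.22). HBEGF, TGFA, ERBB2 and LRIG1 were called under every alternative, and leaving out any 1 library except shRBM10#1 replicate 1 left 3 genes lower and 2 higher. AREG, CBL and ERBB3 were named after their values were seen.

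Outputs of the ERK pathway, which lies downstream of these receptors, moved both ways. Of 24 genes, 6 fell and 4 rose, with a median of 0.02. The AP-1 genes FOSL1 (51.1 and 44.0 CPM in shScr, 30.9 and 27.1 CPM with shRBM10#1, log2 FC -0.71, FDR 0.000266) and JUN (155 and 154 CPM against 125 and 118 CPM, -0.34, FDR 0.00264) fell under every alternative, as did ATF3. Of 9 feedback inhibitors on the list (DUSP, SPRY and SPRED genes), 3 rose and 6 did not pass the test. DUSP6, an ERK phosphatase, was at 107 and 98.6 CPM in shScr and 128 and 160 CPM with shRBM10#1 (0.49, FDR 0.00336). SPRY2 (0.66, FDR 0.00593) and SPRY1 (0.55, FDR 0.0101), named after their values were seen, also rose. None of these rises was called under every alternative by edgeR: DUSP6 lost its call without shScr replicate 2 (0.44), SPRY2 without shScr replicate 1 (0.64) or shScr replicate 2 (0.68), and SPRY1 without shScr replicate 1 (0.48) or shRBM10#1 replicate 2 (0.35).

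Among 15 tested receptor tyrosine kinases and ligands that can bypass EGFR, RET and FGFR3 rose under every alternative. RET rose from 21 and 23 counts in shScr to 116 and 233 counts with shRBM10#1 (0.647 and 0.699 CPM against 3.71 and 6.32 CPM, log2 FC 2.90, SE 0.32, FDR 0.000101). FGFR3 was at 73.6 and 72.2 CPM in shScr and 92.4 and 105 CPM with shRBM10#1 (log2 FC 0.44, FDR 0.00154). AXL fell at a low level, from 1.82 and 2.46 CPM to 1.09 and 0.706 CPM (log2 FC -1.27, FDR 0.0131), a call lost without shScr replicate 2 (-1.03) or shRBM10#1 replicate 2 (-0.97). Its ligand GAS6 fell too (-0.32, FDR 0.0257), except without shScr replicate 1 (-0.22) or shRBM10#1 replicate 1 (-0.26).

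Total RNA of BCL2L1, the gene of Bcl-xL and Bcl-xS, was at 235 and 229 CPM in shScr and 173 and 175 CPM with shRBM10#1 (log2 FC -0.41, SE 0.060, FDR 0.000671). This total does not distinguish the isoforms. BCL2L11, which encodes the pro-apoptotic protein BIM, rose from 25.01 and 24.8 CPM to 37.1 and 40.0 CPM (log2 FC 0.63, SE 0.075, FDR 0.000176). Both were called under every alternative. BMF, another BH3-only gene, rose as well (0.54, FDR 0.0127), except without shScr replicate 1 (0.56), shScr replicate 2 (0.53) or shRBM10#1 replicate 2 (0.30). These 3 were the members called of 20 tested in the Bcl-2 family (15%, beside 14% of all genes). CASP9, the initiator caspase of the mitochondrial pathway, was at 6.10 and 5.44 CPM in shScr and 4.67 and 5.54 CPM with shRBM10#1, and the groups overlapped (log2 FC -0.17, SE 0.15, FDR 0.481). Of 24 caspases, inhibitors of apoptosis and death receptors, BIRC3 (cIAP2) alone passed the test, at 6.41 and 8.48 CPM in shScr and 3.55 and 4.53 CPM with shRBM10#1 (log2 FC -0.87, FDR 0.00448), and not without shScr replicate 2 (-0.66).

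Targets of p53 were lower in more cases than higher. Of 22 genes tested, 7 fell and 3 rose, with a median of -0.05. CDKN1A, the cell cycle inhibitor p21, was at 34.6 and 36.4 CPM in shScr and 16.3 and 21.2 CPM with shRBM10#1 (log2 FC -0.92, FDR 0.000218). GADD45A, a stress and DNA damage gene, was at 34.2 and 30.5 CPM against 18.6 and 17.5 CPM (log2 FC -0.84, FDR 6.86e-05). DDB2, a DNA repair gene, was at 45.7 and 46.9 CPM against 35.4 and 31.1 CPM (log2 FC -0.48, FDR 0.00216). SESN2, CDKN1A, GADD45A, DDB2, GDF15 and PLK3 were lower under every alternative, and SESN2 is on the amino acid stress list too. The 3 rises (BTG2, SESN1 and XPC, log2 FC 0.29 to 0.51) were all lost without shScr replicate 1 and all lost without shScr replicate 2, and SESN1 was lost under 5 of the other fits too (0.40 to 0.41).

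Of 32 tested integrin, laminin and collagen genes, 12 fell and 2 rose, with a median of -0.15, and 10 of the 12 were lower under every alternative. LAMA3 encodes a chain of a basement membrane laminin, and ITGA6 and ITGB4 the integrin that binds it in hemidesmosomes. LAMA3 was at 42.0 and 42.8 CPM in shScr and 23.98 and 19.4 CPM with shRBM10#1 (log2 FC -0.97, FDR 4.41e-05). ITGB4 was at 303 and 304 CPM against 231 and 217 CPM (log2 FC -0.44, FDR 0.000633). In the other direction, ITGB5, which pairs with integrin alpha V, was at 337 and 336 CPM in shScr and 472 and 505 CPM with shRBM10#1 (log2 FC 0.54, FDR 0.000177). The groups were apart in each of these genes. The hemidesmosomal collagen COL17A1, named after its values were seen, had a log2 FC of -1.96 (FDR 0.00336) at 3.17 and 2.73 CPM in shScr.

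YAP and TEAD, the effectors of the Hippo pathway, respond to adhesion and tension. Of 18 genes for these factors and their targets, 7 fell and none rose by edgeR, with a median of -0.15. F3, tissue factor, was at 110 and 116 CPM in shScr and 65.2 and 59.5 CPM with shRBM10#1 (log2 FC -0.86, FDR 1.37e-05). NT5E, the ectonucleotidase CD73, was at 82.9 and 83.9 CPM against 47.1 and 42.1 CPM (log2 FC -0.90, FDR 1.55e-05). TEAD2 (-0.44, FDR 0.00123) and WWTR1, the coactivator TAZ (-0.29, FDR 0.00833), fell as well. These 4 were called under every alternative, and the count fell to 4 without shRBM10#1 replicate 2. ANKRD1, a target often used to report on the pathway and named after its values were seen, fell at a low level (-1.73, FDR 0.0101). It was at 1.48 and 1.58 CPM in shScr and 0.543 and 0.380 CPM with shRBM10#1. Its call was lost without shScr replicate 2 (-1.69) or shRBM10#1 replicate 2 (-1.49). CTGF and CYR61, other targets on the list, did not pass the test.

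Markers of epithelial identity shifted in both directions. Of 18 keratins, 4 fell (KRT6A, KRT6B, KRT13 and KRT16) and 4 rose (KRT23, KRT15, KRT19 and KRT4), with a median of -0.11. KRT15, a keratin of basal epithelial cells, was at 76.3 and 65.6 CPM in shScr and 119 and 153 CPM with shRBM10#1 (log2 FC 0.94, FDR 0.000124). KRT6A, KRT6B and KRT13 were lower, and KRT15 and KRT23 higher, under every alternative. KRT16 (-0.62, FDR 0.00408) lost its call without shScr replicate 1 (-0.47), KRT19 (0.28, FDR 0.012) without shScr replicate 2 (0.23), and KRT4 (0.26, FDR 0.0312) without shScr replicate 1 (0.24), shScr replicate 2 (0.27) or shRBM10#1 replicate 2 (0.19); these 3 were named after their values were seen.

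Of 18 tested genes of secretory epithelium, 4 rose and 3 fell, with a median of -0.06. SPDEF and MUC5B are given above. FOXA1, a pioneer transcription factor of luminal and airway epithelium, was at 103 and 108 CPM in shScr and 145 and 165 CPM with shRBM10#1 (log2 FC 0.56, FDR 0.000398). AGR2, a secretory protein disulfide isomerase named after its values were seen, was at 67.4 and 63.0 CPM in shScr and 76.5 and 125 CPM with shRBM10#1 (0.63, FDR 0.0184). The call for AGR2 was lost without shRBM10#1 replicate 2 (0.23), shScr replicate 1 (0.68) or shScr replicate 2 (0.58), and by DESeq2 (0.63). ALPP, placental alkaline phosphatase, was at 216 and 204 CPM in shScr and 141 and 117 CPM with shRBM10#1 (log2 FC -0.70, FDR 0.000167), though reads may be shared with related phosphatases. FOXA2, also named after its values were seen, was at 1.14 and 1.43 CPM in shScr and 0.224 and 0.434 CPM with shRBM10#1 (-1.93, FDR 0.00641), and not called without shScr replicate 2 (-1.75). The list's counts without shRBM10#1 replicate 1 were 8 higher and 3 lower, and without shRBM10#1 replicate 2 they were 3 higher and 7 lower.

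Of 23 tested markers and drivers of epithelial-mesenchymal transition, 4 fell and 1 rose, with a median of -0.0086. TJP1, the tight junction protein ZO-1, was at 134 and 132 CPM in shScr and 105 and 86.3 CPM with shRBM10#1 (log2 FC -0.48, FDR 0.00201) and was called under every alternative. The desmosomal gene DSP (-0.33, FDR 0.0205) lost its call without shScr replicate 2 (-0.22) or shRBM10#1 replicate 2 (-0.27). CLDN3, a claudin, rose (0.46, FDR 0.00781), except without shScr replicate 2 (0.32) or shRBM10#1 replicate 2 (0.35). OVOL1, an epithelial transcription factor named after its values were seen, fell too (log2 FC -0.25), a call lost without any 1 of the 4 libraries (-0.29 to -0.21), by DESeq2 and under 4 other fits (-0.25).

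S100 and annexin genes, which encode calcium-binding proteins, split evenly: of 24, 5 fell and 5 rose, with a median of -0.09. ANXA2, at 1667 and 1506 CPM in shScr and 1270 and 1119 CPM with shRBM10#1, fell (log2 FC -0.41, FDR 0.00412), as did ANXA3 above. ANXA6 rose from 27.3 and 29.9 CPM to 37.6 and 39.2 CPM (log2 FC 0.43, FDR 0.00448). ANXA10 fell from 42 and 29 counts to 5 and 9 counts (log2 FC -2.39, FDR 0.00277). These 4 were called under every alternative that tested them. The count of rises was 1 without shScr replicate 1, 1 without shScr replicate 2 and 2 without shRBM10#1 replicate 2.

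Of 18 tested genes of NF-kB signaling and secreted cytokines, 8 fell and 1 rose, with a median of -0.30. CXCL8, a neutrophil chemokine, was at 6.59 and 6.23 CPM in shScr and 2.24 and 2.58 CPM with shRBM10#1 (log2 FC -1.41, FDR 0.000136). ICAM1, an adhesion molecule for leukocytes, was at 40.1 and 38.7 CPM against 23.2 and 25.8 CPM (log2 FC -0.68, FDR 0.000131), and LIF, a cytokine of the IL-6 family, at 33.6 and 33.7 CPM against 23.1 and 20.4 CPM (-0.63, FDR 0.000361). TNFAIP3, the feedback inhibitor A20, had a log2 FC of -1.11 (FDR 0.00331). These 4 were lower under every alternative, with no overlap between the groups. CXCL8 and ICAM1 were not lower with shRBM10#2 than with shScr by the test (log2 FC 0.05 and -0.06), and the differences between the hairpins were -1.45 (FDR 0.000146) and -0.63 (FDR 0.000287). NFKBIZ, named after its values were seen, was the gene that rose (0.53, FDR 0.0229), except without shScr replicate 2 (0.45) or shRBM10#1 replicate 2 (0.42). The count of falls was 5 without shScr replicate 1 and 5 without shScr replicate 2.

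MHC class I presentation, by which cells show peptides to T cells, was lower in 6 of 16 genes tested and higher in 1, with a median of -0.25. HLA-B was at 48.3 and 46.4 CPM in shScr and 29.6 and 35.2 CPM with shRBM10#1 (log2 FC -0.55, FDR 0.00101). TAP1 (44.4 and 44.3 CPM against 34.4 and 33.3 CPM, log2 FC -0.39, FDR 0.00251) and TAP2 (113 and 115 CPM against 94.3 and 78.5 CPM, -0.40, FDR 0.00547) form the peptide transporter. The peptidase ERAP2 had a log2 FC of -0.53 (FDR 0.00157). HLA-B, TAP1, TAP2 and ERAP2 were lower under every alternative; HLA genes are alike and polymorphic, so read assignment to HLA-B is uncertain. The gene that rose, PSMB10, a subunit of the immunoproteasome (0.43, FDR 0.00946), lost its call without shScr replicate 1 (0.43), shScr replicate 2 (0.43) or shRBM10#1 replicate 2 (0.28). CD274, which encodes PD-L1 and was named after its values were seen, was at 1.36 and 1.06 CPM in shScr and 0.448 and 0.353 CPM with shRBM10#1 (-1.60, FDR 0.0131), and not called without shScr replicate 1 (-1.41) or shRBM10#1 replicate 2 (-1.42).

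Interferon-stimulated genes gave 3 rises and 2 falls among 27 tested (18.5%, beside 14% of all genes), with a median of 0.03. OAS2 had 1 and 2 counts in shScr and 21 and 39 counts with shRBM10#1. It rose (FDR 0.00101), but no fold is given at so few control counts. OAS1 was at 8.96 and 7.99 CPM in shScr and 11.2 and 14.8 CPM with shRBM10#1 (log2 FC 0.62, FDR 0.00921), and not called without shScr replicate 2 (0.54) or shRBM10#1 replicate 2 (0.40). The third rise, IFI6, named after its values were seen, rested on shRBM10#1 replicate 2 (8.52 CPM, against 3.68 CPM in replicate 1 and 2.86 and 2.83 CPM in shScr), and its log2 FC of 1.11 was 0.37 without that library. ISG20 (-1.02, FDR 0.00679) lost its call without shScr replicate 1 (-0.78), and IFITM2 (-0.93, FDR 0.0185) without shScr replicate 1 (-0.75) or shRBM10#1 replicate 1 (-0.74).

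**Figure D5:**
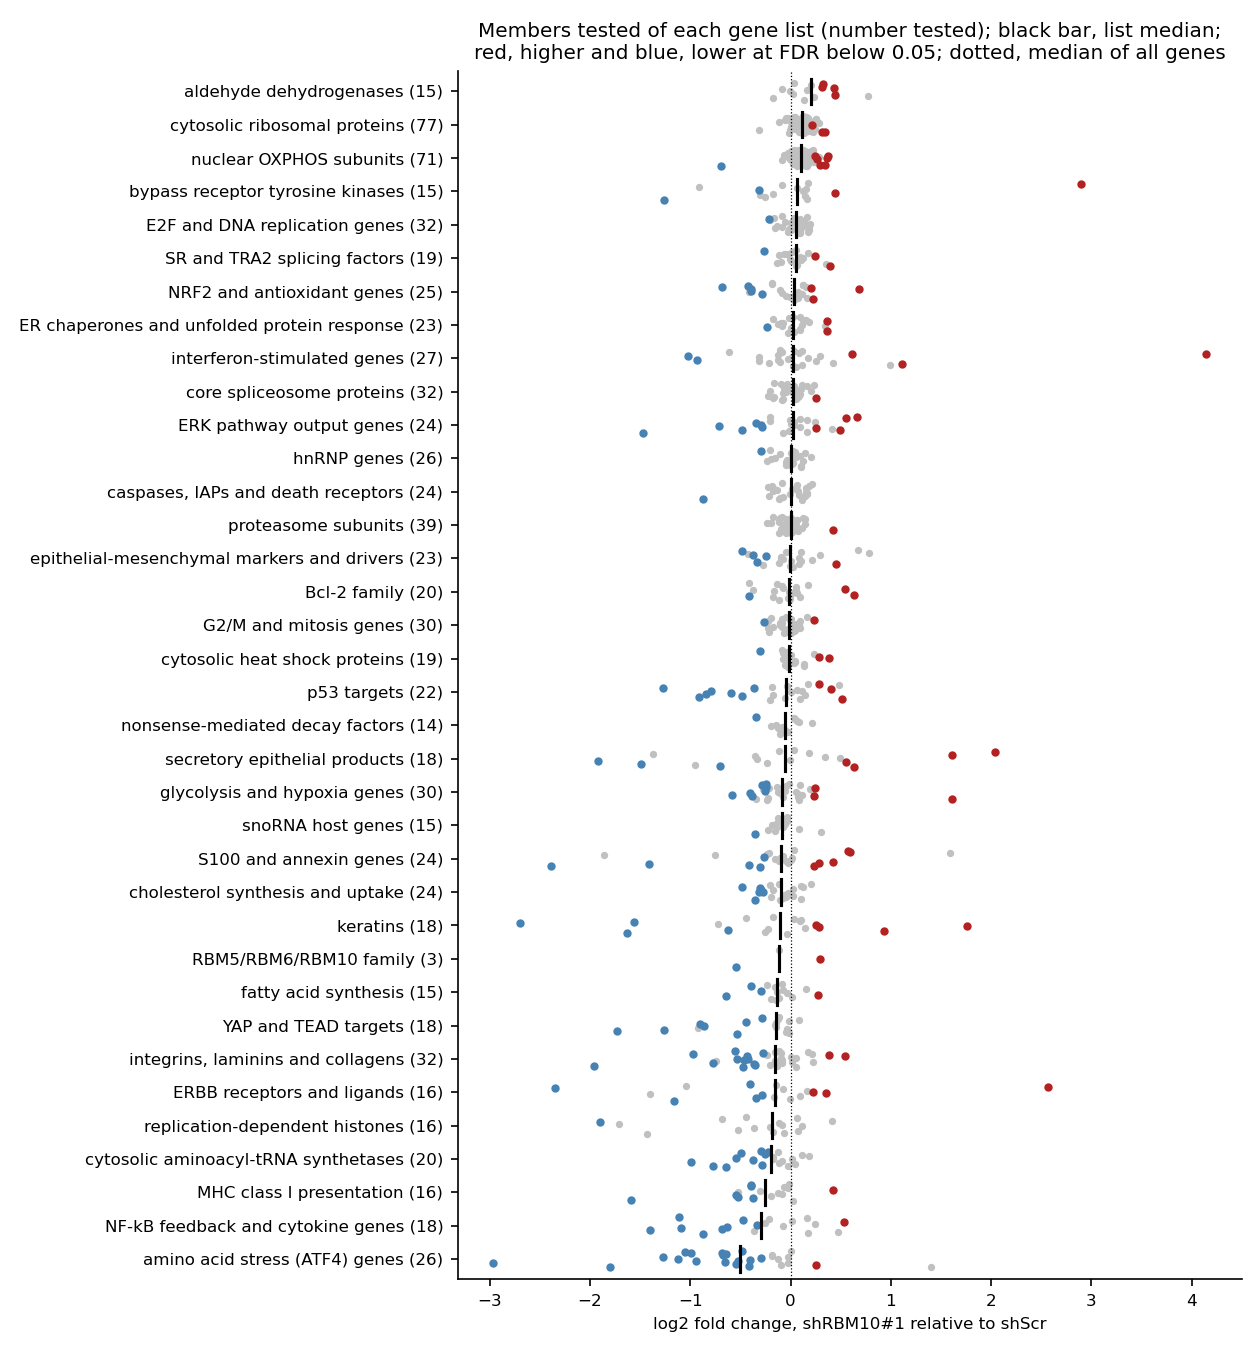
Log2 fold change with shRBM10#1 relative to shScr (horizontal axis) of each tested member of 36 gene lists, ordered by list median (black bars), with the number of members tested in brackets. Red points were higher and blue points lower at an FDR below 0.05, grey points did not pass, and the dotted line is the median of all genes. The amino acid stress list has the lowest median (-0.51) and the aldehyde dehydrogenases the highest (0.21). The lists were chosen with earlier results of these data known, so their order is in part fixed by the choice.

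Metabolic genes changed member by member. NQO1, a quinone reductase and a standard target of the antioxidant factor NRF2, was at 1695 and 1578 CPM in shScr and 2464 and 2794 CPM with shRBM10#1 (log2 FC 0.68, FDR 8.73e-05). SRXN1, sulfiredoxin and also an NRF2 target, was at 387 and 371 CPM against 289 and 274 CPM (log2 FC -0.43, FDR 0.000753), and SLC7A11 fell as given above. Of 25 NRF2 and antioxidant genes, 5 fell and 3 rose, with a median of 0.04, so the list's best known members moved in opposite directions. NQO1, SRXN1, SLC7A11 and ME1, malic enzyme (-0.39, FDR 0.00288), held under every alternative. The count of rises was 1 without shScr replicate 2 and 1 without shRBM10#1 replicate 2.

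Of 30 glycolysis and hypoxia genes, 7 fell and 3 rose, with a median of -0.09. The glucose transporter SLC2A1 was at 288 and 278 CPM in shScr and 232 CPM in both shRBM10#1 libraries (log2 FC -0.29, FDR 0.00708), and ENO2, an enolase, at 60.8 and 60.6 CPM against 40.5 and 40.7 CPM (-0.58, FDR 0.000146). HK2, hexokinase 2, fell as well (-0.41, FDR 0.00443), except without shScr replicate 2 (-0.29). ANGPTL4, an inhibitor of lipoprotein lipase, rose from 21 and 14 counts to 51 and 61 counts (log2 FC 1.61, FDR 0.00518), except without shScr replicate 2 (1.34). The count of falls was 3 without shScr replicate 1, 3 without shScr replicate 2 and 4 without shRBM10#1 replicate 1, and that of rises was 1 without shScr replicate 1 and 1 without shScr replicate 2.

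Cholesterol synthesis and uptake genes fell in 6 of 24 cases and rose in none by edgeR, with a median of -0.10. ACAT2, which makes acetoacetyl-CoA, was at 57.7 and 57.3 CPM in shScr and 47.0 and 43.2 CPM with shRBM10#1 (log2 FC -0.35, FDR 0.00547) and was the 1 gene called under every alternative. NSDHL, an enzyme of sterol synthesis (-0.31, FDR 0.00771), lost its call without shScr replicate 2 (-0.27). The count was 3 without shScr replicate 1, 2 without shRBM10#1 replicate 2 and 10 without shRBM10#1 replicate 1. Among 15 genes of fatty acid synthesis, 3 fell and 1 rose, with a median of -0.13. ACSL4, which activates polyunsaturated fatty acids, was at 99.2 and 109 CPM in shScr and 73.7 and 59.6 CPM with shRBM10#1 (log2 FC -0.65, FDR 0.0006) and was called under every alternative. ACSS2, acetyl-CoA synthetase, rose (0.28, FDR 0.0107), except without shScr replicate 1 (0.24). The elongase ELOVL6 fell (-0.29, FDR 0.0295), a call lost without any 1 of shScr replicate 1 (-0.34), shScr replicate 2 (-0.24) and shRBM10#1 replicate 2 (-0.19). The falls numbered 8 without shRBM10#1 replicate 1.

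Aldehyde dehydrogenases had the highest median of the lists, 0.21. The order of the lists is in part fixed by their choice, which was made with earlier results of these data known. Of 15 genes, 4 rose and none fell in the fit of all 6 libraries. ALDH1A3, which makes retinoic acid, was at 127 CPM in both shScr libraries and 183 and 162 CPM with shRBM10#1 (log2 FC 0.44, FDR 0.00115) and was called under every alternative. ALDH4A1 (0.44, FDR 0.0066), ALDH5A1 (0.31, FDR 0.0106) and ALDH7A1 (0.32, FDR 0.015) each lost the call without shScr replicate 1 (0.31 to 0.35) or shRBM10#1 replicate 2 (0.25 to 0.32). ALDH5A1 and ALDH7A1 also lost it without shScr replicate 2 (0.32 and 0.30).

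Genes of growth and protein production showed small shifts. Cytosolic ribosomal proteins had a median of 0.11, with 69 of 77 genes above 0, beside 7340 of 14217 over all genes. Of the 77, 3 rose (3.9%, beside 7.13% of all genes): RPL13 (1075 and 986 CPM in shScr, 1227 and 1386 CPM with shRBM10#1, log2 FC 0.34, FDR 0.00846), RPL13A (0.31, FDR 0.0392) and RPL4 (0.21, FDR 0.0426). This count depended on single libraries of both conditions. Without shScr replicate 2, none was called by edgeR, without shScr replicate 1 the count was 19, without shRBM10#1 replicate 1 it was 12, and without shRBM10#1 replicate 2 it was 1. RPL13 lost its call without shScr replicate 2 (0.28), RPL13A without shScr replicate 2 (0.21) or shRBM10#1 replicate 2 (0.17), and RPL4 without shScr replicate 1 (0.25), shScr replicate 2 (0.17) or shRBM10#1 replicate 2 (0.19). Under the other fits, which include the replicate block, the length offset and the 4 libraries alone, RPL13A lost its call in 5 (0.31 to 0.33) and RPL4 in 6 (0.20 to 0.23). The implied mean fragment of shScr replicate 2 was the shortest (231.2 nt). The length offset uses transcript lengths corrected for each library's fragment length, and with it RPL13A had a log2 FC of 0.33 and RPL4 of 0.22. Any other part of fragment length was not tested. Many ribosomal protein genes have processed pseudogenes, so their read assignment is uncertain.

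Nuclear subunits of the respiratory chain had a median of 0.10, and of 71 genes 6 rose and 1 fell (9.86%, beside 14% of all genes). The rises included NDUFB5 of complex I (74.4 and 70.4 CPM in shScr, 89.1 and 99.0 CPM with shRBM10#1, log2 FC 0.38, FDR 0.00551), NDUFA5 of the same complex (0.36, FDR 0.0225) and ATP5G1 of ATP synthase (0.29, FDR 0.0121). Rises numbered 12 without shScr replicate 1, 11 without shRBM10#1 replicate 1, 2 without shRBM10#1 replicate 2 and 0 without shScr replicate 2, where NDUFB5 (0.34), NDUFA5 (0.41) and ATP5G1 (0.27) were not called. NDUFA5 was not called without shScr replicate 1 (0.32) or shRBM10#1 replicate 2 (0.19) either. The gene that fell, ATP5C1, the gamma subunit of ATP synthase, was at 136 and 133 CPM in shScr and 83.2 and 82.9 CPM with shRBM10#1 (log2 FC -0.69, SE 0.061, FDR 2.55e-05). It was called under every alternative, and in shRBM10#2 it was at 168 and 172 CPM.

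Of 30 genes of G2/M and mitosis, NUSAP1 rose (log2 FC 0.24, FDR 0.0212) and KIF4A fell (-0.26, FDR 0.0382), with a median of -0.02. Of 32 E2F and DNA replication genes, RRM1 fell (-0.21, FDR 0.0342), with a median of 0.06. The calls were 6.67% and 3.12% of these lists, beside 14% of all genes. Each of these 3 calls was lost without shScr replicate 1 (log2 FC 0.23 for NUSAP1, -0.33 for KIF4A, -0.23 for RRM1), shScr replicate 2 (0.24, -0.20 and -0.19) or shRBM10#1 replicate 2 (0.22, -0.16 and -0.19). In the fit of the 4 libraries alone and with the length offset and replicate block all 3 were lost as well (0.23 to 0.24 for NUSAP1), and KIF4A (-0.27 to -0.25) and RRM1 (-0.22 to -0.19) were also lost with the replicate block alone. Of 39 proteasome subunits, PSMB10 alone passed the test, as given above. Of 16 tested histone genes, HIST1H3D alone passed (30 and 21 expected counts in shScr, 7.49 and 7.25 with shRBM10#1, log2 FC -1.90, FDR 0.0185), and not without shScr replicate 1 (-1.61) or shRBM10#1 replicate 2 (-1.78). Histone genes are near-identical copies without poly(A) tails, so their values are uncertain.

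RNA-processing genes are the class RBM10 belongs to. Of 19 tested SR and TRA2 splicing factors and kinases, CLK2, a kinase of SR proteins (20.9 and 19.1 CPM in shScr, 27.7 and 24.9 CPM with shRBM10#1, log2 FC 0.39, FDR 0.00946), and SRSF4 (0.24, FDR 0.0366) rose, and TRA2A fell (-0.26, FDR 0.0241). That is 15.8% of the list, beside 14% of all genes. Of 26 hnRNP genes, PTBP3 alone passed the test (259 and 312 CPM against 234 and 230 CPM, -0.30, FDR 0.0262). Of 32 core spliceosome proteins, PRPF31 alone passed (195 and 194 CPM against 234 and 231 CPM, 0.26, FDR 0.0127). Of 14 factors of nonsense-mediated decay, UPF3B alone passed (-0.34, FDR 0.0114), and of 15 snoRNA host genes DANCR alone (-0.36, FDR 0.0142). The list medians lay between -0.09 and 0.06.

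Each of these calls was lost when at least 1 library was left out. CLK2 (0.33) and PRPF31 (0.26) were lost without shScr replicate 2, and PTBP3 without shScr replicate 2 (-0.16) or shRBM10#1 replicate 2 (-0.29). SRSF4 was lost without shScr replicate 2 (0.17), shRBM10#1 replicate 1 (0.23) or shRBM10#1 replicate 2 (0.25). TRA2A and DANCR were lost without shScr replicate 1 (-0.22 and -0.24) or shRBM10#1 replicate 2 (-0.26 and -0.35). UPF3B was lost without shScr replicate 1 (-0.34), shScr replicate 2 (-0.34) or shRBM10#1 replicate 2 (-0.24).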

How the data were processed

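The authors quantified 51398 RefSeq isoforms per library. Per the submitters' processing notes, the tools were STAR 2.4, RSEM 1.2.29 and edgeR, and the build was hg19; strand and read length are not given in the sources used here. The authors deposited expected counts, TPM, FPKM and each isoform's percent of its gene; FPKM and percent were not used, and TPM gave no result in the text. Expected counts were summed over the isoforms of each of 26334 symbols, rounded, and filtered with filterByExpr by condition. Library depth was 31953729 to 37557507 expected counts. EdgeR 4.0.16 in R 4.3.3 (TMM, glmQLFit, glmQLFTest) was fitted to all 6 libraries with a coefficient per condition, which leaves 3 residual degrees of freedom (median prior degrees of freedom 9.73), and adjusted over 14217 genes.

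Members and gene lists were chosen with earlier results of these data known. Named genes were RBM10; EGFR, BCL2L1 and CASP9; the 12 largest rises and 12 largest falls at FDR below 0.05, a mean of at least 5 CPM and no overlap; the 3 smallest p-values per direction; and per list up to 4 called members with the smallest p. Alternatives were DESeq2 1.42.0, its size factors, no filter, at least 10 counts in every library, 4 libraries alone, a replicate block, offsets for length and GC (loess span 0.3) with and without the block, and each library left out. On simulated counts for this comparison (14068 genes tested), 62% of 100 genes changed by 0.5 and 86% of 100 changed by 1 (log2) were recovered, with 11 unchanged genes called. These counts were drawn from the kind of model that is fitted, without differences between libraries such as fragment length. The 11 calls are therefore no estimate of the errors in the real comparison. Some members of the lists are counted but not reported here by name.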

Additional observations from a re-analysis of the deposited data

Results flagged for a closer look

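Of the genes named above, 4 passed the test with each hairpin in opposite directions relative to the same shScr libraries, and in each the difference between the hairpins passed the test as well. ATP5C1 was at 136 and 133 CPM in shScr. It was lower in the shRBM10#1 libraries (83.2 and 82.9 CPM) and higher in those of shRBM10#2 (168 and 172 CPM), a log2 difference of -1.03 between the hairpins (FDR 3.05e-06). SRSF4, an SR splicing factor, was at 76.5 and 69.2 CPM, 86.7 and 85.4 CPM, and 64.2 and 62.05 CPM in the same order, a difference of 0.45 (FDR 0.000959), and its rise with shRBM10#1 was not called without shScr replicate 2, shRBM10#1 replicate 1 or shRBM10#1 replicate 2. The heat shock gene HSPA1A was at 928 and 1022 CPM, 1256 and 1280 CPM, and 867 and 765 CPM (difference 0.64, FDR 0.000236), and its near-identical copy HSPA1B differed by 0.64 too (FDR 0.000199), so these are not separate results. Over all genes tested, 76 were called in opposite directions with a called difference, 61 of them higher and 15 lower with shRBM10#1.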

How the results depend on the processing

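The fall of RBM10 was called under every setting run (log2 FC -0.59 to -0.54 under the other fits, -0.58 to -0.50 with a library left out). Genes higher numbered 649 in a fit of the 4 libraries alone and 651 with the length offset and the replicate block; under the remaining fits all counts of changed genes stayed within 1.5 times the 1014 higher, 982 lower and 267 past an absolute log2 FC of 1. With 1 library left out, genes higher ranged from 485 to 1377, genes lower from 500 to 1249, and genes past an absolute log2 FC of 1 from 153 to 330. A group left with 1 library is assumed to vary like the others. No named gene reversed its direction: of 1261 values under the other fits 57 were no longer past the threshold, and of 508 with a library left out 92 were not. The fits beyond leaving out a library that ended a call most often were the length offset with the replicate block (19 named genes) and the 4 libraries alone (15). Of 126 called named genes besides RBM10, 80 were called under every alternative that tested them. Libraries of the same replicate number showed no large shared shift (correlations of deviations from the condition means -0.00383, -0.0193 and -0.0136). With 2 libraries per condition this cannot show whether they were made together. A fit with the replicate block gave 869 higher, 886 lower and 255 past an absolute log2 FC of 1, with RBM10 at -0.54. With the block and the GC offset, 806 were higher and 889 lower. Depth limits genes under about 1 CPM, where few reads stand behind a value.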

Other observations

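The 7 genes that follow were picked after their values were seen, and say nothing of Wnt or BMP signaling as a whole. WNT3A, a Wnt ligand, was at 9.92 and 10.0 CPM in shScr and 19.8 and 24.7 CPM with shRBM10#1 (log2 FC 1.16, SE 0.11, edgeR FDR 5.2e-05). AXIN2, a target and inhibitor of Wnt signaling, was at 4.07 and 3.58 CPM against 8.02 and 10.4 CPM (log2 FC 1.27, FDR 0.000235). The Wnt receptor FZD4 was at 10.0 and 10.8 CPM against 18.3 and 24 CPM (log2 FC 1.03, FDR 0.000329). BMP3 (log2 FC 1.34, FDR 0.000329), the BMP antagonist CHRDL1 (1.28, FDR 8.96e-05) and the inhibitory SMAD6 (1.03, FDR 8.67e-05) rose, while the BMP target ID1 was at 69.6 and 50.3 CPM in shScr and 30.0 and 26.1 CPM with shRBM10#1 (log2 FC -1.10, FDR 0.000194). The groups did not overlap in any of these genes.

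ZNF703, a transcriptional repressor, was at 11.1 and 10.1 CPM in shScr and 21.2 and 32.03 CPM with shRBM10#1. In the shRBM10#2 libraries ZNF703 was at 11.04 and 10.2 CPM, a difference of 1.33 between the hairpins (FDR 0.000217). CDH5, the endothelial cadherin among the markers, was at 12.6 and 14.5 CPM in shScr and 22.4 and 29.97 CPM with shRBM10#1 (log2 FC 0.95, FDR 0.000411). In the shRBM10#2 libraries CDH5 was at 16 and 14.9 CPM. Both were singled out after their values were seen.

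SMN2 had the largest log2 FC among called genes at a mean of at least 5 CPM, 4.44 (FDR 0.0192), but its groups overlapped. It was at 52.9 CPM in shRBM10#1 replicate 1 and at 1.60 CPM in replicate 2, against 0.524 and 1.94 CPM in shScr. Its near-identical copy SMN1 was at 17.1 CPM in shRBM10#1 replicate 1 and 69.0 CPM in replicate 2, against 78.9 and 74.0 CPM in shScr, so a high SMN2 value went with a low SMN1 value in 1 library. Whether reads were divided differently between the copies in that library was not tested.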
